A study of Mus musculus with 4 samples.

Results

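The 10 genes of the Slit, Robo and netrin guidance systems described here were examined in maps of trimethylated lysine 27 of histone H3 (H3K27me3) from mouse erythro-myeloid progenitors (EMPs), the blood progenitors of the yolk sac. They were 10 of 21951 protein-coding genes and were chosen by name, with earlier results of these data known. The comparisons with all genes below are therefore descriptive. The 10 are the secreted ligands Slit1, Slit2, Slit3, Ntn1 and Ntn4 and the receptors Robo1, Robo2, Robo3, Dcc and Unc5a. All peaks inside these genes or within 10 kb of them were taken, 30 of 10223 peaks in the library from 500 EMPs and 36 of 15282 peaks in the library from 15000 EMPs. Peaks that the deposited annotation assigned to these genes from further away added 10 and 5 peaks, respectively.

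The mark was mapped by CUT&RUN, in which a nuclease bound to an antibody releases the DNA around the marked histone. EMPs were sorted as KIT+CD41+CD16/32+ cells from E10.5 yolk sacs of C57BL/6 mice, and all libraries carried the same genotype label, which gives Ezh2fl/fl, Tie2-Cre+/+ and the words wild type together. Tie2-Cre acts in endothelium and in the blood cells derived from it, and the label does not say whether the floxed Ezh2 allele was intact in these cells, which the study treats as wild type. Each cell number had 1 H3K27me3 library and 1 IgG control library, from pooled sorted cells, so no difference below has a replicate check and none was tested. The 500-EMP library was amplified for 17 cycles and read at 76 bp, and the 15000-EMP library for 16 cycles and read at 59 bp. The study's methods also give them different instruments (NextSeq and NovaSeq), a point on which the sources differ. They were called at different thresholds, the stricter one stated for 500 EMPs. The study's summary further gives the smaller library fewer reads and a much lower share of aligned reads. They came from separate experiments. Cell number cannot be told apart from any of these. The peak files used here give positions with no height or read count, and signal tracks were not analysed here. A peak in a bulk library may also come from all cells or from some of them, and these cannot be told apart. The starts of 12 EMP marker genes, Kit, Itga2b and Runx1 among them, had 0 peaks within 3 kb in both libraries, and 7 of 8 neural genes had one with 500 EMPs and 8 of 8 with 15000 EMPs, beside 9.92% and 17.0% of all genes. Of 11 endothelial markers, 9 with 500 EMPs and 7 with 15000 EMPs had none either, so these counts do not separate EMPs from endothelium.

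H3K27me3 is written by Polycomb repressive complex 2, whose catalytic subunit is Ezh2 or Ezh1, and it is known for covering the starts of developmental genes that are kept silent in a given lineage. In mammals it is typical of starts rich in CpG dinucleotides. Slits are secreted glycoproteins that bind Robo receptors and repel growing axons and migrating cells. Netrin-1, encoded by Ntn1, binds DCC, which mediates attraction, and receptors of the UNC5 family, which mediate repulsion. Netrin-4, encoded by Ntn4, is a laminin-related protein of basement membranes. Outside the nervous system the same ligands and receptors act in vessel patterning and in contacts between stem cells and their niche.

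The reference sequences upstream of 6 RefSeq starts are shown because these starts differed in where the peaks lay. The RefSeq start of Ntn4 is that of its principal transcript, 368 bp inside the gene record, so the Ntn4 stretch lies downstream of the gene start used for distances below. For Robo3 and Slit2, whose RefSeq starts lie 71 and 17 bp inside the gene record, the stretch stops at the gene start and leaves those bases out. All are from the RefSeq promoter table for GRCm38.p6, which is the mm10 assembly, are written 5′ to 3′ on the strand of the gene, and carry each CG in capitals. Of the 10 genes, 7 are in that table and Slit1, Ntn1 and Dcc are not. The Slit3 entry is not shown, and most of the stretch before its RefSeq start, 232 bp inside the gene record, is annotated as transcribed. This was not a rule for all genes, since the Ntn4 stretch lies inside its gene record too and is shown. The Ntn4 stretch (chr10:93640799-93641048, plus strand) holds 26 CG and the Robo2 stretch (chr16:74411826-74412075, minus strand) holds 14, and both lay wholly inside a 15000-EMP peak and outside the 500-EMP peaks. The Robo3 stretch (chr9:37433247-37433425, minus strand) holds 9 CG and was covered in the same way.
Ntn4: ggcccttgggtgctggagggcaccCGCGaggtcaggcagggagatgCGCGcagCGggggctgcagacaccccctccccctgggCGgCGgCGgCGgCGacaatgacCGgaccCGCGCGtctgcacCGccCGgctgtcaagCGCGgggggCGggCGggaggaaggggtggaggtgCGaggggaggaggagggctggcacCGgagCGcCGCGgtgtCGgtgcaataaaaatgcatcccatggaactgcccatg
Robo2: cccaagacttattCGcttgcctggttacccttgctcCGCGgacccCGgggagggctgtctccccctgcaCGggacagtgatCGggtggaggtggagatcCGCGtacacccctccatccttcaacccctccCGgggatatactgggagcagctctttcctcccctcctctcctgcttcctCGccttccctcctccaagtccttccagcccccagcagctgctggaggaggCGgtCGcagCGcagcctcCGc
Robo3: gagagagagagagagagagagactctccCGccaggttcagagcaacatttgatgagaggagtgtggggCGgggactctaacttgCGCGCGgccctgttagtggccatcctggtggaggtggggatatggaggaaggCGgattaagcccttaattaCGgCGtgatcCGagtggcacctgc
The stretches upstream of Unc5a (chr13:54949161-54949410, plus strand, 25 CG), Slit2 (chr5:47982905-47983137, plus strand, 23 CG) and the principal Robo1 transcript (chr16:72662899-72663148, plus strand, 11 CG) lay outside the peaks of both libraries.
Unc5a: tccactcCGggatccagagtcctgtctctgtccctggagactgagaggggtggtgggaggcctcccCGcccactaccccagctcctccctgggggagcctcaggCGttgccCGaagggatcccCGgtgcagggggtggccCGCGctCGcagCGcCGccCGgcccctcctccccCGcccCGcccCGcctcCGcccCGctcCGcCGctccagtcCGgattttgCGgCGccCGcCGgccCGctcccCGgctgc
Slit2: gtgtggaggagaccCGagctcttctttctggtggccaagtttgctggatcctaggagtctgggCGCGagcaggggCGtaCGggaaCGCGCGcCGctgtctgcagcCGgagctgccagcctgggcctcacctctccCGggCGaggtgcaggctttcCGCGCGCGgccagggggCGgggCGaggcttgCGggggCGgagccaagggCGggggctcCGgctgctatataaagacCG
Robo1: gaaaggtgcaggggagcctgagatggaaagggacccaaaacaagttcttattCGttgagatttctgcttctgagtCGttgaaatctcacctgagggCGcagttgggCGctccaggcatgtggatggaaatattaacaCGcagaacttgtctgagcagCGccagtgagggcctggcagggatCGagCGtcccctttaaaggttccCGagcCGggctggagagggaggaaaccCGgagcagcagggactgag
By comparison, 94.6% of the 32851 windows of 300 bp in the promoter table held at least 1 CG on either strand, with a median of 7. The printed stretches are shorter, 179 to 250 bp, so their counts are not on the same scale.

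All 10 genes had a peak in the gene or within 10 kb in the 15000-EMP library and 6 did in the 500-EMP library. Over all protein-coding genes the shares were 25.0% and 15%, respectively. Because 8 of the 10 genes span 100 kb or more and a long gene can meet more peaks, the same count was made for genes of that length. All 8 long guidance genes were marked with 15000 EMPs, beside 47.5% of 2492 long genes, and 4 of 8 with 500 EMPs, beside 29.3%. Counting only peaks up to 3 kb from the gene start left 9 of 10 guidance genes with 15000 EMPs, beside 17.0% of all genes, and 6 of 10 with 500 EMPs, beside 9.92%. The gene left out with 15000 EMPs was Robo1, and those left out with 500 EMPs were Slit1, Slit2, Robo1 and Dcc. The start itself lay inside a peak for Slit1, Slit3, Robo2, Robo3, Ntn1 and Ntn4 with 15000 EMPs (8.62% of all genes) and for Ntn1 alone with 500 EMPs (1.40% of all genes).

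**Figure D1:**
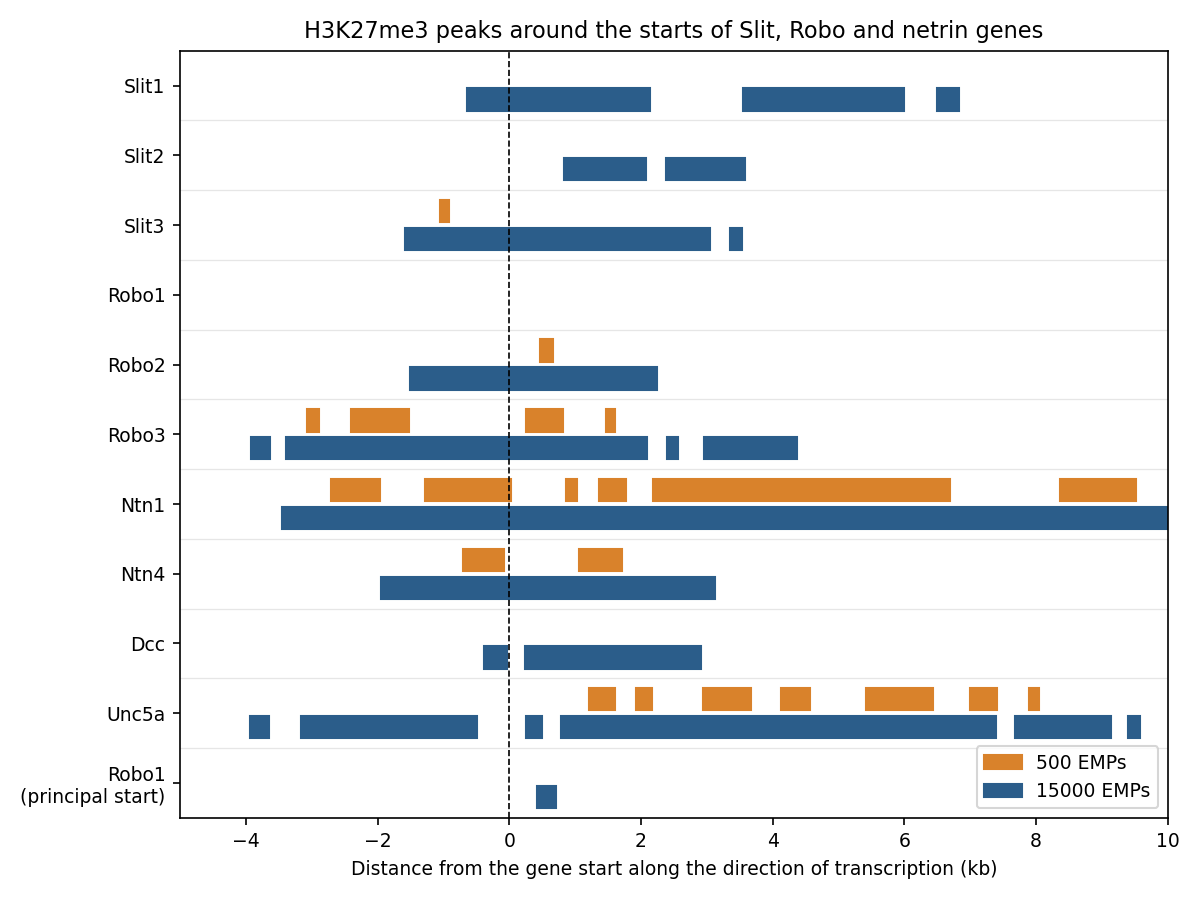
H3K27me3 peaks from 5 kb upstream to 10 kb downstream of each gene start, with distance in kb along the direction of transcription on the x axis and 1 gene per row. Orange bars are peaks of the 500-EMP library and blue bars those of the 15000-EMP library; the lowest row is centred on the principal Robo1 transcript. Blue bars cross the dashed line at the start in 6 rows and an orange bar does so for Ntn1.

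The length covered was taken as the share of the 6001-bp window, 3 kb either side of the gene start, that lay inside peaks. Its median over the 10 genes was 69.5% with 15000 EMPs and 2.81% with 500 EMPs, and its median over all protein-coding genes was 0 in both. Genes with any peak in the window had medians of 45.7% (n = 3728) and 13.1% (n = 2177), and the guidance genes among them 76.4% (n = 9) and 16.4% (n = 6). More than 50% of the window was covered for 7 guidance genes with 15000 EMPs, beside 7.82% of all genes, and for Ntn1 with 500 EMPs, beside 0.861%.

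**Figure D2:**
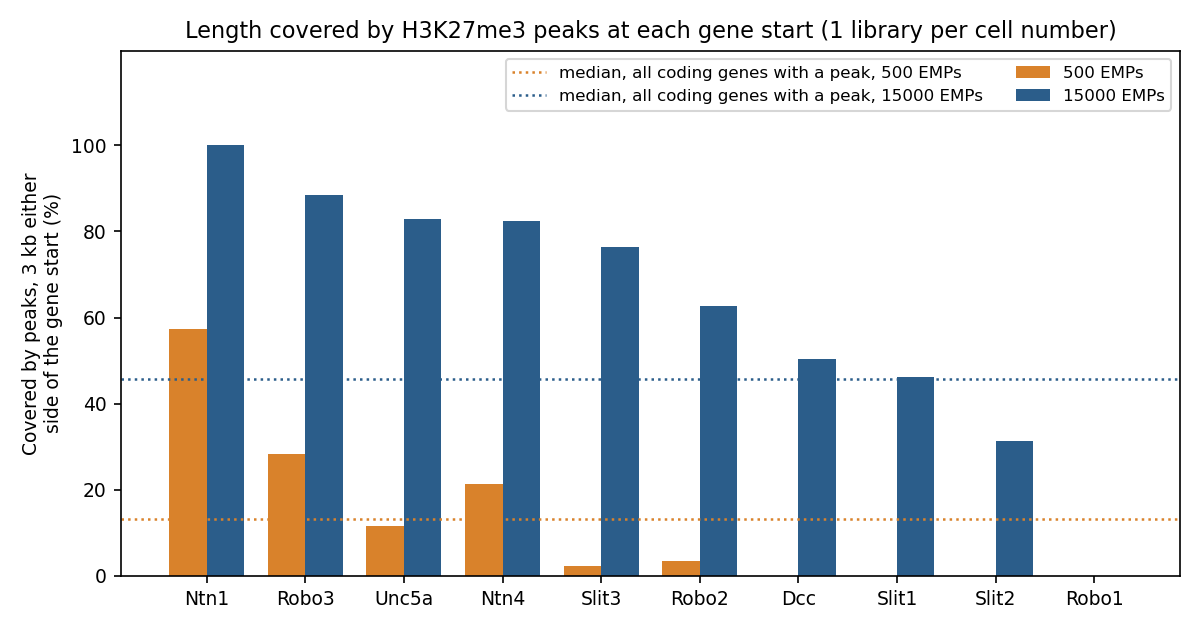
Percent of the window 3 kb either side of each gene start that lay inside peaks, with 1 bar per library and genes ordered by the 15000-EMP value. Dotted lines are the medians over all protein-coding genes with a peak in the window, 13.1% with 500 EMPs and 45.7% with 15000 EMPs. Ntn1 is highest in both libraries, and Robo1 is at 0 in both.

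Among the ligands, Ntn1 on chromosome 11 was covered most. The window around its start was covered for 57.3% with 500 EMPs and for 100% with 15000 EMPs, and only 139 of all genes were covered throughout with 15000 EMPs. A single 15000-EMP peak of 13479 bp (chr11:68390804-68404282) ran from 3459 bp upstream to 10019 bp downstream of the start, and 74 of 15282 peaks were at least as wide. It held 6 separate 500-EMP peaks, of which the widest, 4504 bp in intron 2, was the widest guidance-gene peak of that library. The 500-EMP peak over the start itself (1317 bp) ended 29 bp inside the gene.

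The covering of Ntn1 went on into the gene in both libraries. With 15000 EMPs a second peak of 4027 bp, 10293 to 14319 bp from the start, held the starts of the shorter transcripts Ntn1-201 and Ntn1-203. The window around Ntn1-201 was covered for 92.8% with 15000 EMPs and for 38.4% with 500 EMPs. A further peak of 7756 bp reached 22505 bp and included exon 3. Last, a 2203-bp peak over exon 4, 122632 bp from the start, and a 445-bp peak in the intron before it had no 500-EMP counterpart.

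Ntn4 on chromosome 10 had 1 peak of 5070 bp with 15000 EMPs, which covered 82.4% of the window and contained both annotated starts, 368 bp apart. With 500 EMPs it was covered for 21.3%, by a 624-bp peak that ended 75 bp upstream of the start and a 653-bp peak that began 1058 bp downstream in intron 1. The stretch of 1132 bp between them, with the Ntn4 sequence printed above inside it, had 8.66 CG per 100 bp, and the flanking peaks had 2.98.

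The Slit genes, the ligands of the Robo receptors, differed among themselves. Slit3 on chromosome 11 was covered for 76.4% of the window with 15000 EMPs, by a peak of 4623 bp across the start and exon 1, and for 2.28% with 500 EMPs. That small share was a single 137-bp peak, 1049 to 913 bp upstream of the start, which is the smallest width in the 500-EMP list. Its sequence (chr11:35120175-35120311, plus strand) is shown because it was the only 500-EMP peak near this start, and it holds 1 CG.
Slit3 peak: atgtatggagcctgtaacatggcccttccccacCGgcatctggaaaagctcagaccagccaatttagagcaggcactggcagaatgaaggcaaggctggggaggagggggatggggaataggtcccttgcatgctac
Slit1 on chromosome 19 was covered for 46.3% with 15000 EMPs, by a 2776-bp peak across the start and exon 1, and for 0% with 500 EMPs, where the nearest peak was 455609 bp away. Slit2 on chromosome 5 was covered for 31.4% with 15000 EMPs and for 0% with 500 EMPs, where the nearest peak was 1540632 bp away. Its 15000-EMP peaks of 1255 bp over exon 1 and 1200 bp in intron 1 both lay downstream of the start, the nearer one by 824 bp, so that the CG-rich stretch printed above was outside them.

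Slit3 and Slit1 also held peaks deep inside the gene. In Slit3, 1 group lay in intron 4, 376846 to 381522 bp from the start, and another around exon 6, 422626 to 425988 bp from the start, and each group had peaks in both libraries. In the exon 6 group a 2743-bp peak of the 15000-EMP library contained a 229-bp peak of the 500-EMP library. In intron 4 the 3 peaks with 15000 EMPs measured 231, 560 and 874 bp, and 1 of the 2 with 500 EMPs overlapped one of them. The deposited annotation assigned these internal peaks to the microRNA gene Mir218-2, which lies within Slit3, but the nearest of them was 69604 bp from it. In Slit1, 2 peaks of 728 and 1526 bp lay in intron 4 with 15000 EMPs. Slit2 had none beyond its first intron, and Mir218-1 within it was 237232 bp from the nearest peak.

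**Figure D3:**
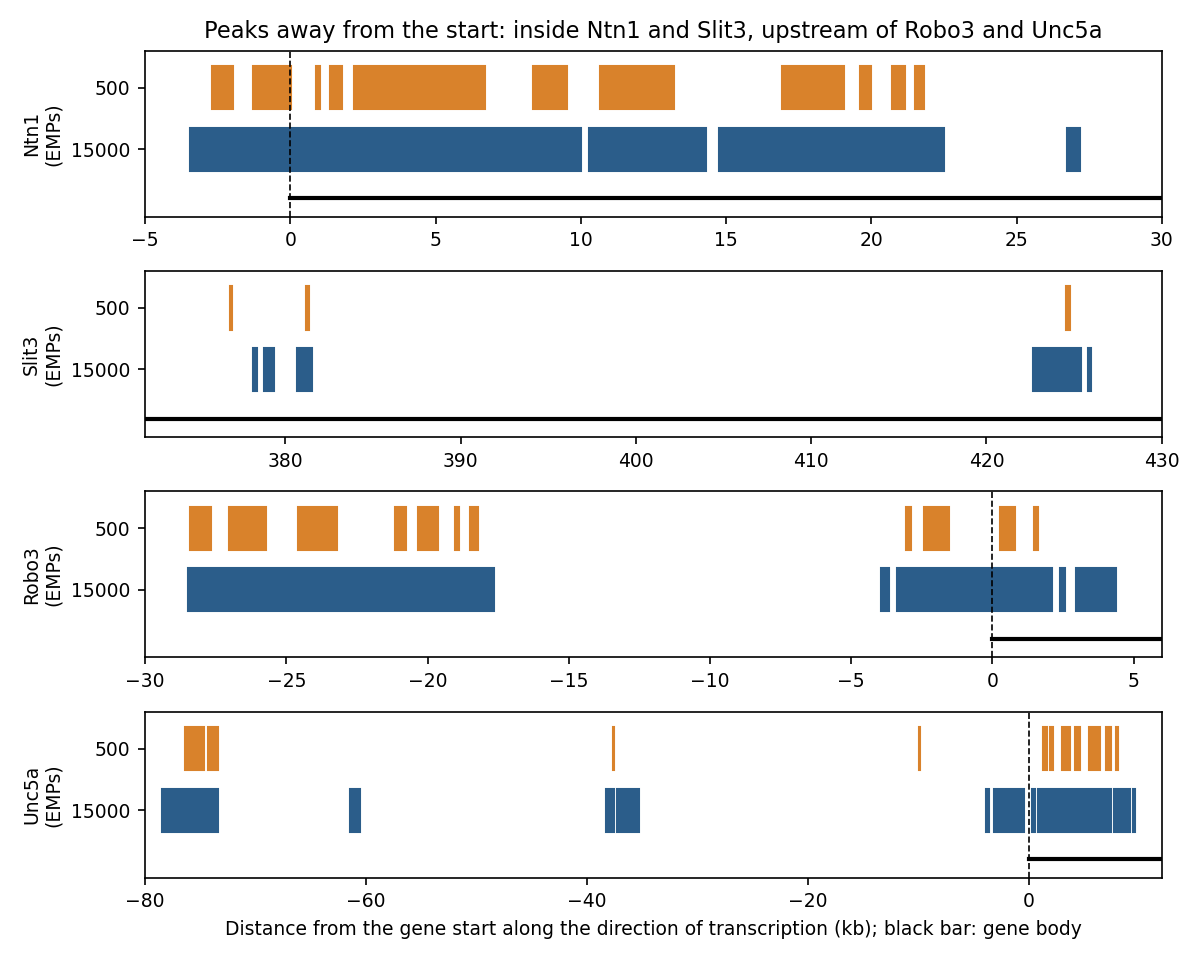
Peaks away from the start in Ntn1, Slit3, Robo3 and Unc5a, with distance from the gene start in kb on the x axis and a scale of its own in each panel. Orange bars are 500-EMP peaks, blue bars 15000-EMP peaks, the black line is the gene body and the dashed line the start. In Ntn1 and upstream of Robo3 a wide blue bar spans several orange bars, and far upstream of Unc5a one spans 2.

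Of the Robo receptors, Robo3 on chromosome 9 was covered most. Robo3 is the divergent receptor that lets commissural axons cross the midline. Its window was covered for 28.2% with 500 EMPs and for 88.5% with 15000 EMPs. A 15000-EMP peak of 5488 bp spanned the start and exon 1 and held all 4 of the 500-EMP peaks. Those 4 peaks left 1786 bp around the start uncovered, with 3.53 CG per 100 bp beside 2.22 in the flanking peaks. A second region lay upstream of the gene. There a 15000-EMP peak of 10835 bp (chr9:37450885-37461719), 28473 to 17639 bp before the start, held 7 peaks of the 500-EMP library, 5003 bp in total length. Of all 15000-EMP peaks, 149 were at least as wide. No annotated gene overlapped it, and the nearest protein-coding genes were Robo3 itself at 17639 bp and Msantd2 at 27600 bp. Robo4, the endothelial member of the family and the neighbour of Robo3 on the other side, had 0% of its window covered in both libraries, and the nearest peak to the gene was 13759 bp away with 15000 EMPs and 16521 bp away with 500 EMPs.

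Robo2 on chromosome 16 was covered for 62.6% with 15000 EMPs, by a peak of 3755 bp, and for 3.33% with 500 EMPs, by a peak of 200 bp. The 200-bp peak lay in the 5′ UTR and contained the start of the transcript Robo2-202, tagged as principal in the annotation, which is 533 bp inside the gene record. No other peak of either library fell in the 519987 bp of the gene or within 10 kb of it. RefSeq lists 2 more Robo2 starts, 680945 and 1035468 bp further upstream, and their nearest peaks were 679437 and 1033960 bp away with 15000 EMPs.

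Robo1, also on chromosome 16, was covered least. Its only peak was 296 bp wide (chr16:72663564-72663859), in the 15000-EMP library, and no 500-EMP peak lay in the gene or within 10 kb. The peak lay in the 5′ UTR of exon 1 of the principal transcript Robo1-201, 415 bp from the start of that transcript. Counted from the gene record, which begins with Robo1-205 a further 354843 bp upstream, it was not near a start, and this is why Robo1 failed the 3-kb count. When each coding transcript start was used instead, 10 of 10 guidance genes passed the 3-kb count with 15000 EMPs, beside 18.2% of all genes, and 6 of 10 with 500 EMPs, beside 10.8%. The window of Robo1-201 was covered for 4.93% with 15000 EMPs, which was still the lowest of the 10 genes.

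The netrin receptors Dcc and Unc5a had peaks on both sides of a start that was itself uncovered with 15000 EMPs. Unc5a on chromosome 13 was covered for 82.8% with 15000 EMPs and for 11.5% with 500 EMPs. A 2681-bp peak ended 492 bp upstream of its start and a 245-bp peak began 252 bp downstream, and the 743 bp between them had 11.7 CG per 100 bp beside 2.84 in these 2 peaks. A 6609-bp peak in intron 1 followed, which overlapped 6 of the 500-EMP peaks. The nearest 500-EMP peak to the start was 1214 bp downstream. Dcc on chromosome 18 was covered for 50.3% with 15000 EMPs and for 0% with 500 EMPs, where the nearest peak was 1710518 bp away. Its 15000-EMP peaks of 355 and 2664 bp left 278 bp at the start uncovered, with 5.04 CG per 100 bp beside 2.91 in the 2 peaks. Dcc had 2 further peaks of 353 and 490 bp in an intron far inside the gene, the nearer one 1069245 bp from the start.

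An uncovered start had peaks within 3 kb on both sides in 4 cases, Robo3 and Ntn4 with 500 EMPs and Dcc and Unc5a with 15000 EMPs, and each of these stretches was richer in CG than the peaks beside it. The same held for most genes with such a stretch, 91.2% of 797 with 500 EMPs and 92.0% of 728 with 15000 EMPs, so it was not particular to the guidance genes. The part of base composition in where peaks were called was not tested.

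The deposited annotation also assigned peaks far upstream to Unc5a in both libraries. With 15000 EMPs a 5036-bp peak lay 78432 to 73397 bp before the start and held 2 peaks of the 500-EMP library, of 1646 and 848 bp. Nearer to the gene were an 880-bp peak over the lincRNA gene Gm29431 and peaks of 708 and 2022 bp around the lincRNA gene 5330429C05Rik. The gene of any type nearest to the 5036-bp peak was Gm29431 at 11456 bp. The nearest protein-coding gene to this peak was Unc5a at 73397 bp, and the near edge of Tspan17, on the other side, was 74203 bp away.

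The 500-EMP peaks of these genes lay almost wholly inside the 15000-EMP peaks. Of the 30 peaks, 28 shared 1 bp or more with a 15000-EMP peak (93.3%, 95% Wilson interval 78.7 to 98.2%), and the share over all 10223 peaks was 91.2%. The 2 exceptions, in intron 4 of Slit3 and 9972 bp upstream of Unc5a, were both 137 bp wide. In the other direction 11 of 36 peaks were overlapped (30.6%, 18.0 to 46.9%), beside 32.2% of all 15282. The intervals cover counting error only and treat peaks as independent. Of the 30 peaks, 11 lay at Ntn1 and 8 at Unc5a, so the intervals may be too narrow. Of 79345 bp covered with 15000 EMPs, 21227 bp were shared with the 500-EMP library, or 26.8% of that length and 98.7% of the 21514 bp of the smaller library. The covered length was thus 3.69 times as large with 15000 EMPs as with 500 EMPs, and over all peaks it was 4.03 times as large. By width, 9 of 14 of the 15000-EMP peaks over 2 kb and 2 of 22 narrower ones were overlapped, and over all peaks the shares were 81.7% and 16.0%. At the starts, the peaks over Slit3, Robo2, Robo3, Ntn1 and Ntn4 were 3755 bp wide or more and were met, and those of Slit1, Slit2 and Dcc were 2776 bp wide or less and were not. The peaks of 2681 and 245 bp beside the Unc5a start were not met either.

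The CpG content of the starts was read from the reference genome in the 1001 bp centred on each start. A start was taken as CpG-rich at an observed over expected CpG ratio of at least 0.6 and a GC content of at least 50%. Of the 10 guidance genes, 5 were CpG-rich (Slit1, Slit2, Slit3, Ntn4 and Unc5a), beside 44.4% of 21922 genes. The highest ratios were 0.804 for Unc5a and 0.801 for Slit3. Robo2, Dcc, Robo3 and Ntn1 lay just under the limit, between 0.564 and 0.590. The Robo1 gene record starts at a CpG-poor site (0.212), whereas its principal transcript starts at a CpG-rich one (0.699), and the only Robo1 peak was at the latter. Over all genes, 21.8% of CpG-rich starts and 13.1% of the others passed the 3-kb count with 15000 EMPs, and 13.7% and 6.88% with 500 EMPs. With 15000 EMPs, the genes with the highest ratios, Unc5a and Slit3, were covered for 82.8% and 76.4% and the one with the lowest, Robo1, for 0%. Slit2, at 0.750, was covered for 31.4%, and Ntn1, at 0.590, for 100%.

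**Figure D4:**
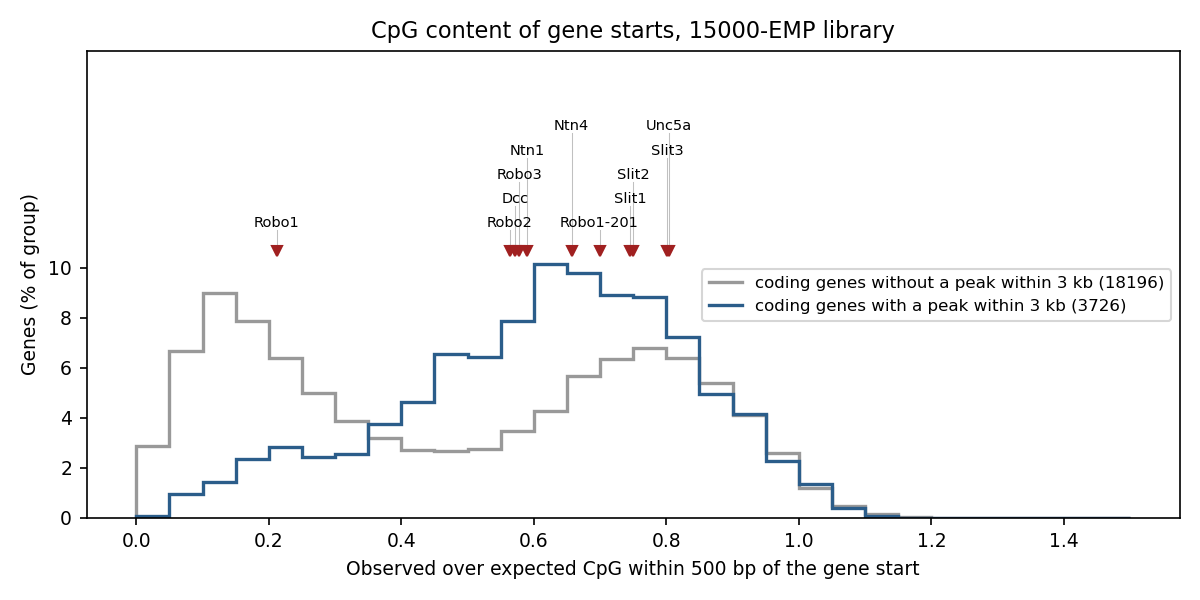
Observed over expected CpG in 1001 bp around gene starts, as the percent of 3726 genes with a 15000-EMP peak within 3 kb (blue) and of 18196 genes without one (grey). Triangles mark the guidance genes, and Robo1 is marked at both its gene record and its principal transcript (Robo1-201). The Robo1 gene record, at 0.212, is the only one below 0.564.

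The remaining ligands and receptors of these systems and their intracellular effectors were counted in the same way. Of 15 other ligands and receptors, 13 passed the 3-kb count with 15000 EMPs and 10 with 500 EMPs, beside 17.0% and 9.92% of all genes. Their median coverage was 64.7% and 8.03%. The UNC5 family was covered as a whole, with Unc5b at 92.2%, Unc5c at 75.2% and Unc5d at 46.6% with 15000 EMPs and at 35.5%, 13.8% and 9.28% with 500 EMPs. Of the membrane-anchored netrins, Ntng2 was covered for 90.4% with 15000 EMPs and 6.90% with 500 EMPs, and Ntng1 for 64.7% and 2.73%. Neo1, which encodes the DCC relative neogenin, was covered for 58.3% with 15000 EMPs and 0% with 500 EMPs. Its ligand gene Rgma was covered for 76.7% and 33.9%. Robo4 and Ntn5 had no peak in either library.

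The effectors are the enzymes and adaptors that carry the signal from these receptors to the cytoskeleton, and most act downstream of many other receptors as well. Of 22 effector genes, 6 passed the 3-kb count with 15000 EMPs (27.3%, beside 17.0% of all genes). With 500 EMPs 0 passed, beside 9.92% of all genes. Their median coverage was 0 in both libraries, as was the median over all protein-coding genes. The 5 covered most were Ablim1 at 57.7%, Enah at 37.7%, Ptk2 at 18.2%, Trio at 16.5% and Pak1 at 3.72%. The Slit-Robo GTPase-activating genes Srgap1, Srgap2 and Srgap3 had none, and neither had the GTPase genes Cdc42 and Rac1.

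The other guidance families were counted by the same rule. With 15000 EMPs such a peak was found for 12 of 14 Eph receptors, 7 of 8 ephrins, 5 of 9 plexins and 3 of 7 class 3 semaphorins. With 500 EMPs the counts were 5, 3, 1 and 2. Over all genes the shares were 17.0% with 15000 EMPs and 9.92% with 500 EMPs. The plexins with 500 EMPs, at 11.1%, were near that share. Median coverage with 15000 EMPs was 34.0% for the Eph receptors, 17.3% for the ephrins, 6.35% for the plexins and 0 for the class 3 semaphorins, below the 69.5% of the Slit, Robo and netrin genes. These are counts in 1 library each, and the differences between lists were not tested. Of 11 endothelial marker genes, 4 had a peak with 15000 EMPs (Kdr, Cldn5, Sox17 and Sox18), or 36.4% beside 17.0% of all genes. With 500 EMPs 2 had one (Cldn5 and Sox17), or 18.2% beside 9.92%.

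**Figure D5:**
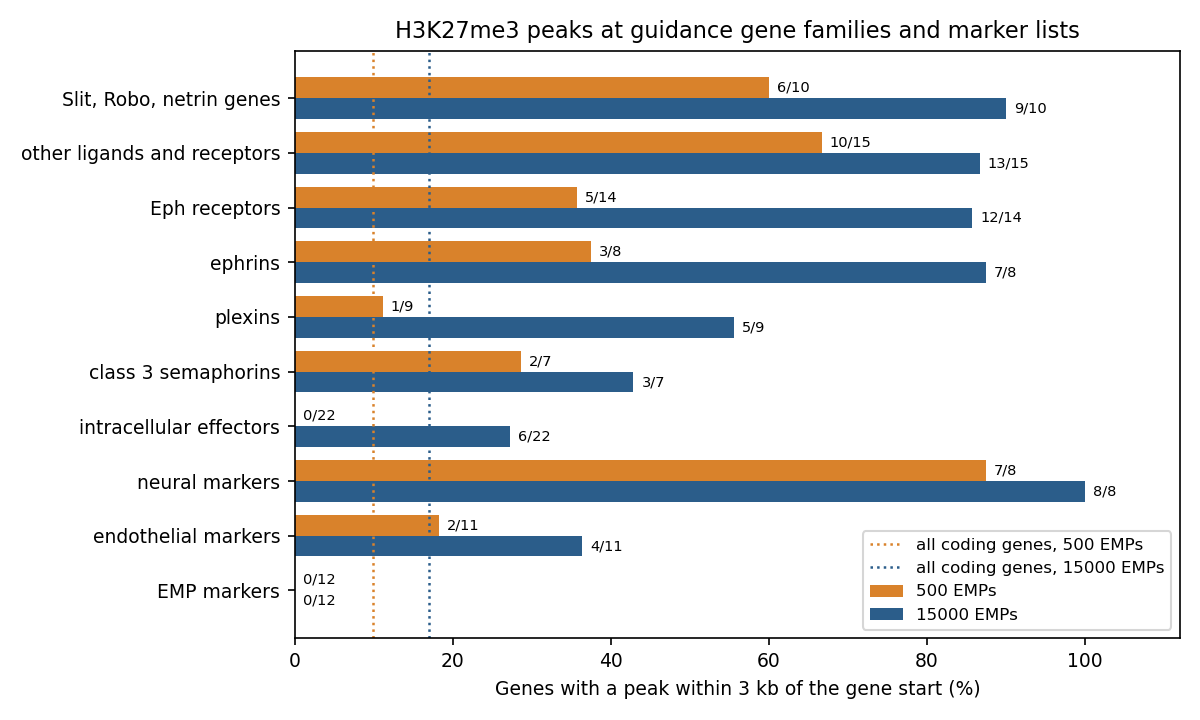
Percent of genes in each list with a peak within 3 kb of the gene start, with the count beside each bar, for the 500-EMP (orange) and 15000-EMP (blue) libraries. Dotted lines are the shares over all protein-coding genes, 9.92% and 17.0%. In both libraries the bars pass the line of their own library in every list except the intracellular effectors, at 0 with 500 EMPs, and the EMP markers, at 0 in both.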

How the data were processed

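H3K27me3 CUT&RUN libraries from 500 and 15000 EMPs were analysed, each with an IgG library that served as control in peak calling. Per the labels and methods, the authors aligned reads to mm10 with Bowtie2 2.2.1, used SAMtools 1.9 and deepTools 3.5.1, and called broad peaks with MACS2 2.1.2 at p thresholds of 0.01 for 500 and 0.05 for 15000 EMPs. In the commands the authors list, the input names of the 2 libraries are exchanged, and the thresholds are taken here as stated in the methods. The stricter value was chosen by the authors for the 500-EMP library because of its background. The deposited files used here hold peak positions and their annotation by ChIPpeakAnno, with no score, count or depth (signal tracks were not analysed here), and peaks of the 2 cell numbers were called separately. Per the labels and methods, kit and instrument differ between sources.

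Here, peaks were placed against GENCODE vM21 (mm10), with the gene start taken as the 5′ end of the gene record and coordinates counted from 1, and the annotated distances were used as an alternative. Base composition came from the GRCm38.p6 genome and printed promoters from the RefSeq table. Python 3.11.15, SciPy 1.17.1, pysam 0.24.0 and matplotlib 3.10.9 were used. The scripts were tested on simulated peaks. With 1 library per group no test was run. Genes were named as follows: all 10 guidance genes, any gene of a list of up to 15, the 5 most covered of a longer list, and genes beside a peak; Srgap1, Srgap2, Srgap3, Cdc42 and Rac1 were chosen after their values were seen. The 10 genes and the lists were chosen with earlier results of these data known. Alternatives were other windows, flanks, start definitions, joining of near peaks and overlap rules.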

Additional observations from a re-analysis of the deposited data

How the results depend on the processing

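Of 82 alternative values for 32 results, 66 stayed within 1.5 times the reported value or inside its interval and 16 moved. The count of the 10 genes with a peak within 3 kb stayed, although without the narrowest peaks, or with a limit of 1 kb, it was 5 rather than 6 with 500 EMPs. Joining peaks moved the 500-EMP count of 30 peaks to 15 (gaps up to 1 kb) and 11 (gaps up to 3 kb), and the 15000-EMP count of 36 to 19 and 17. Joining over 3 kb also moved the covered 500-EMP length from 21514 to 35733 bp and the starts inside a 500-EMP peak from 1 to 3; placing a 200-bp stretch around each start in place of the single base gave 2. A window of 5 kb either side moved median coverage from 2.81% to 1.68% with 500 EMPs and from 69.5% to 45.1% with 15000 EMPs. When an overlap had to span 50% of the queried peak, the 15000-EMP share fell from 30.6% to 5.56%, and with 50% of both peaks the shares became 3.33% (500 EMPs) and 2.78% (15000 EMPs). A window of 1 kb moved the 500-EMP counts of other ligands and receptors to 5, class 3 semaphorins to 0 and Eph receptors to 2, and the 15000-EMP count of effectors to 2. No paired analysis was possible because each group held 1 library. The peak files used here hold no read counts, so in them the absence of a 500-EMP peak at Slit1, Slit2, Robo1 or Dcc gives no limit on the mark there.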
